A study of Mus musculus with 9 samples.

Results

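The genes followed here code for regulators and matrix proteins of the embryonic tendon: the transcription factors Scx and Mkx, the membrane glycoprotein Tnmd, the thrombospondins Thbs1, Thbs2, Thbs3 and Thbs4, and the matrix or secreted proteins Tnc, Fibin and Cilp. They are 10 of the 54532 mouse genes in the deposited table, chosen by name and matched by Ensembl identifier, and all 10 had a mean of at least 10 normalized counts over the 9 libraries, as had 17764 genes in all. The libraries hold polyadenylated RNA of cells sorted from knees of mouse embryos at E14.5. All embryos carried 1 reporter allele at each of 2 loci, Creb5 3XHA-P2A-tdTomato/+ and Sox9 iresEGFP/+, so the 3 populations differ in the fluorescence of the sorted cells and not in genotype. GFP-only cells had the Sox9 reporter alone, RFP-only cells had the Creb5 reporter alone, and double-positive cells had both. Each population was collected from litters 1, 2 and 5, which gives 3 libraries per population, and a library is named below by its population and litter, as in GFP-only litter 5.

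Tendons join muscle to bone, and ligaments join bone to bone. Scx is a basic helix-loop-helix transcription factor of tendon and ligament progenitors, and Mkx is a homeobox transcription factor needed for normal collagen fibrils in tendon. Tnmd is a type II membrane glycoprotein and a common marker of differentiating tendon cells. Thrombospondins are secreted glycoproteins that bind calcium and matrix: Thbs1 and Thbs2 assemble as trimers, and Thbs3, Thbs4 and the cartilage protein Comp assemble as pentamers. Tnc is a matrix glycoprotein of the tenascin family found at muscle-tendon junctions and in dense connective tissue, Cilp is a matrix protein first described in cartilage, and Fibin is a secreted protein first described in limb bud development.

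The libraries held between 25199258 and 47079305 reads. Sox9 lay between 16565 and 37992 normalized counts in the libraries sorted with the Sox9 reporter and between 1091 and 1891 in RFP-only cells. Creb5 lay between 2006 and 3531 in the libraries sorted with the Creb5 reporter and between 138 and 274 in GFP-only cells. Summed hindlimb markers (6 genes, Tbx4 and Pitx1 among them) were lowest in GFP-only cells. They ran from 7430 to 11032 in GFP-only, 19490 to 28725 in double-positive and 14480 to 20012 in RFP-only cells. GFP-only litter 5 stood apart from the other GFP-only libraries, with a median absolute log2 difference of 0.829 and 0.812 from them against 0.294 to 0.427 for the 7 other pairs within a population. Summed markers of several other cells also moved with the populations. Cartilage markers (12 genes) ran from 1701440 to 2331730 in GFP-only, 376874 to 1029270 in double-positive and 8412 to 18291 in RFP-only cells. Skeletal muscle markers (14 genes) ran from 834 to 2140, from 1118 to 3434 and from 9504 to 35468 in the same order, and Ckm was at 0 in GFP-only cells. Loose connective tissue markers (10 genes) ran from 4142 to 6624, from 16055 to 24998 and from 29827 to 34585, with none at 0. Blood and immune markers (13 genes) ran from 1354 to 2207, from 3368 to 21495 and from 1761 to 5265, and Fcgr1 was at 0 in GFP-only cells. Erythroid markers (8 genes) ran from 5637 to 38215, from 9648 to 77597 and from 41014 to 134302, with none at 0. Endothelial markers (10 genes) ran from 1099 to 2182, from 1443 to 5720 and from 5235 to 6566, with none at 0. Pericyte and smooth muscle markers (9 genes) ran from 15023 to 17998, from 9383 to 19258 and from 13290 to 18590, with none at 0. Most of their GFP-only sum was Cspg4, with means of 13475, 7388 and 1135 in the same order. The other 8 of these markers were higher in RFP-only than GFP-only cells (limma, adjusted p under 0.05). Joint interzone markers (8 genes) ran from 9437 to 13005, from 46559 to 100484 and from 34589 to 39232. Of them 5 were higher and 1 lower in double-positive than GFP-only cells (limma, adjusted p under 0.05). Schwann and neuron markers (9 genes) ran from 1529 to 4480, from 2948 to 4441 and from 4998.5 to 6101. Epidermis markers (6 genes) ran from 506 to 1199, from 927 to 1173 and from 526 to 1017. The part of these other cells in the results below was not tested.

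Promoter sequences were available from RefSeq (build GRCm38.p6) for 7 of the 10 genes and not for Scx, Mkx and Thbs1. Of the 7, 3 are shown because their genes were higher in both populations with the Creb5 reporter than in the GFP-only one. Scx and Mkx were higher in both as well but could not be searched. Each run reads 5′ to 3′ on the strand of the gene, ends just before the start of the GENCODE M21 gene model, and overlaps no annotated exon. The Tnmd run has 222 bases and the others 250, because the RefSeq start of Tnmd lies inside that model. Capitals mark CANNTG, the E-box class of motif that basic helix-loop-helix factors bind. The Thbs4 window is chr13:92794819-92795068 on the minus strand, the Cilp window is chr9:65264930-65265179 on the plus strand, and the Tnmd window is chrX:133850758-133850979 on the plus strand.
Thbs4: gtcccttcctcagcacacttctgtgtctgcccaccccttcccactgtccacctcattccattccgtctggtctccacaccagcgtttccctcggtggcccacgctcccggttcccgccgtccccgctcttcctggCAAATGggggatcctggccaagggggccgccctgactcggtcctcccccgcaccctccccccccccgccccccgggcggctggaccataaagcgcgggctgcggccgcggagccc
Cilp: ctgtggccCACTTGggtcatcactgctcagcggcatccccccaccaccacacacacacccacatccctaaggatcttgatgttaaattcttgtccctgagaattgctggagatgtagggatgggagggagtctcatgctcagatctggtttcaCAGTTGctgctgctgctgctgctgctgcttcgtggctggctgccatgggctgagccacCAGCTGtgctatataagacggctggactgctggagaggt
Tnmd: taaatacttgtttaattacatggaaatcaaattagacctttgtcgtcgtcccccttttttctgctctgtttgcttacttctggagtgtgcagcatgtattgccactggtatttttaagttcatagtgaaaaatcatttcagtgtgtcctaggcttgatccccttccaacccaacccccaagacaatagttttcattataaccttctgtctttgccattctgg

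In the 250 bases before the RefSeq start, searched on both strands, CANNTG occurred 3 times at Cilp, 1 time at Thbs4, and 0 times at Tnmd. It was present in 66.2% of 32851 RefSeq promoters of that length, so a match is common. Among the members not shown, CANNTG occurred 3 times at the outer start of Tnc, 1 time at Thbs2, 1 time at Thbs3 and 0 times at Fibin. The match at Thbs3 was CAGATG, a form held by 14.4% of promoters and itself a case of CANNTG. Neither the full cAMP response element TGACGTCA (1.55% of promoters), its core TGACG (17.8%, contained in the full element) nor the AP-1 motif TGANTCA (6.75%) was found at any of the 7 genes. TATAAA (12.4% of promoters) was found at Tnc and, on the opposite strand, at Thbs2. The 3 sequences also differ in base composition, with a GC content of 70.8% at Thbs4, 56% at Cilp and 39.2% at Tnmd.

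The first comparison asked what Sox9-reporter cells with the Creb5 reporter differ in from those without it. In double-positive cells 5 of the 10 genes, Scx, Mkx, Tnmd, Thbs4 and Cilp, were above their level in GFP-only cells (limma, adjusted p under 0.05) and none was lower (0 at an unadjusted p under 0.05, with edgeR and with DESeq2), where 5.27% of all tested genes were called higher and 3.02% lower. The population ranges of the same 5 genes did not overlap, as was true in that direction of 14.3% of tested genes. The second comparison set the populations with a single reporter side by side. In RFP-only against GFP-only cells these 5 genes were again higher and Fibin was lower, beside 11.8% of tested genes called higher and 8.48% lower. Ranges did not overlap for the 5 higher genes (20.9% of tested genes) or for Fibin (18.5%). The 2 comparisons share the GFP-only libraries, and without GFP-only litter 5 they called 5 and 6 of the genes. Skeletal muscle markers were higher in RFP-only than GFP-only cells for 12 of 13 tested genes and loose connective tissue markers for 10 of 10, and in double-positive cells for 1 of 13 and 6 of 10. Pericyte and smooth muscle markers were higher in RFP-only cells for 8 of 9 and lower for 1, and endothelial markers were higher for 6 of 10. In double-positive cells they were higher for 3 of 9 and 2 of 10. Their part in the results was not tested. The third comparison asked what Creb5-reporter cells with the Sox9 reporter differ in. In double-positive against RFP-only cells, Fibin was higher (1.80% of tested genes) and Thbs4 lower (1.05%). Over the 3 populations together 6 of the 10 genes passed the F-test, against 17.2% of tested genes, and Thbs1, Thbs2, Thbs3 and Tnc did not. In these bulk libraries fewer cells that express a gene and less RNA per cell cannot be told apart.

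**Figure D1:**
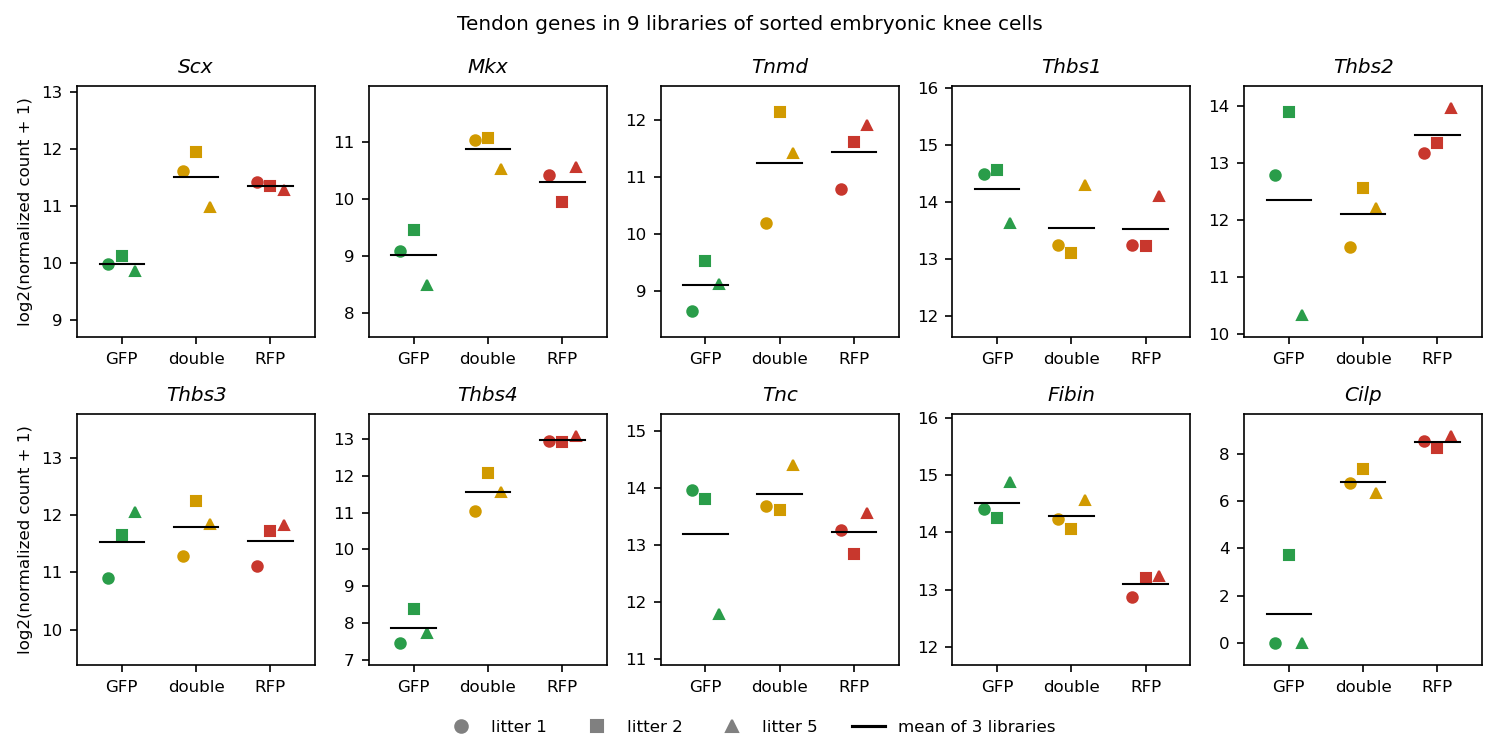
Levels of the 10 genes in each of the 9 libraries as log2(normalized count + 1), with 1 panel per gene and a scale of its own in each. Points are litters 1, 2 and 5 of GFP-only, double-positive and RFP-only cells, and the bars mark the means of 3 libraries. The GFP-only points of Scx, Mkx, Tnmd, Thbs4 and Cilp lie below all points of both other populations.

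Scx (ENSMUSG00000034161, GRCm38 chr15:76457452-76459458, plus strand) lies within the gene Bop1 on the opposite strand, with no shared exon base. Its normalized counts in litters 1, 2 and 5 were 1006, 1106 and 919.9 in GFP-only cells, 3123, 3944 and 2012 in double-positive cells, and 2725, 2615 and 2477 in RFP-only cells. Every library with the Creb5 reporter was above every GFP-only library, and the double-positive range enclosed the RFP-only range. The log2 fold change from GFP-only was 1.53 ± 0.25 (SE) in double-positive cells (limma, adjusted p = 0.00452) and 1.37 ± 0.25 in RFP-only cells (adjusted p = 0.00308). Without GFP-only litter 5 these were 1.47 and 1.30. The difference of double-positive from RFP-only cells was 0.16, with a 95% interval from -0.39 to 0.71 (adjusted p = 0.928).

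Mkx (ENSMUSG00000061013, chr18:6934518-7004780, minus strand) shares 4.91% of its exon bases with the gene AC148004.2 on the same strand. Reads from those bases cannot be assigned to 1 of them, and AC148004.2 has no values among the deposited genes. Its normalized counts were 547.2, 705.2 and 360.9 in GFP-only cells, 2100, 2138 and 1480 in double-positive cells, and 1367, 984.1 and 1506 in RFP-only cells. GFP-only libraries were the lowest again, and here the double-positive mean (1906 ± 370, SD, n = 3) was above the RFP-only mean (1286 ± 270.4), with ranges that overlapped in litter 5. The log2 fold change from GFP-only was 1.86 ± 0.30 in double-positive cells (limma, adjusted p = 0.00414) and 1.29 ± 0.30 in RFP-only cells (adjusted p = 0.0109). The second call was lost without RFP-only litter 5 (adjusted p = 0.0538). Without GFP-only litter 5 the fold changes were 1.60 and 1.03. The double-positive to RFP-only difference was 0.57, with a 95% interval from -0.08 to 1.22 (adjusted p = 0.481).

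The levels of Scx and Mkx were also compared within libraries. Per kilobase of merged exon length, Mkx stood at between 0.184 and 0.360 of Scx in the 9 libraries, and the lowest and the highest of these values came from RFP-only and double-positive cells. The merged exon model of Scx also covers its intron, so its level per kilobase is understated in all libraries alike. The Pearson correlation of the log2 values of Scx and Mkx was 0.929 over the 9 libraries, which share the 3 populations.

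Tnmd (ENSMUSG00000031250, chrX:133850980-133865577, plus strand), whose promoter above held no E-box, had normalized counts of 401.7, 732.1 and 557.6 in GFP-only cells. It had 1168, 4484 and 2743 in double-positive cells and 1764, 3139 and 3863 in RFP-only cells. Litter 1 gave the lowest value in every population, and the lowest Creb5-reporter library was still above the highest GFP-only library. The log2 fold change from GFP-only was 2.15 ± 0.46 in double-positive cells (limma, adjusted p = 0.0167) and 2.34 ± 0.46 in RFP-only cells (adjusted p = 0.00463). The double-positive call was lost without double-positive litter 2 (adjusted p = 0.0735) or of litter 5 (adjusted p = 0.0559), and without a trend in the prior (adjusted p = 0.0536). Leaving out GFP-only litter 5 gave 2.16 and 2.35. Double-positive and RFP-only cells differed by -0.19, with a 95% interval from -1.20 to 0.82 (adjusted p = 0.965). Relative to Scx per kilobase, Tnmd ranged from 0.592 to 0.982 in GFP-only, 0.555 to 2.02 in double-positive and 0.960 to 2.31 in RFP-only libraries, so the populations overlapped in this ratio.

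Thbs4 (ENSMUSG00000021702, chr13:92751590-92794818, minus strand), a pentameric thrombospondin abundant in tendon, had the smallest adjusted p of the 10 genes in both comparisons with GFP-only cells. Its normalized counts were 175.2, 334.2 and 211.7 in GFP-only cells, 2100, 4314 and 2997 in double-positive cells, and 7812, 7670 and 8695 in RFP-only cells. The 3 populations stood in separate steps with no overlap. Double-positive cells were 12.9-fold above GFP-only cells (log2 fold change 3.69 ± 0.30, limma, adjusted p = 0.000127), with 3.58, 3.69 and 3.82 in litters 1, 2 and 5. RFP-only cells were 34.6-fold above GFP-only cells (5.11 ± 0.30, adjusted p = 4.96e-06). Leaving out GFP-only litter 5 gave 3.63 and 5.05. The step from RFP-only down to double-positive cells was -1.42 ± 0.30 (adjusted p = 0.0322) and had the same sign in all 3 litters. That call was lost without double-positive litter 1 (adjusted p = 0.14) or 5 (0.109), without RFP-only litter 1 (0.1), 2 (0.113) or 5 (0.136), and without a trend in the prior (0.0865). Skeletal muscle markers were lower in double-positive than RFP-only cells for 9 of 13 tested genes, and their part in this step was not tested.

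Thbs1 (ENSMUSG00000040152, chr2:118111876-118127133, plus strand), a trimeric thrombospondin that activates latent TGF-beta, had 23105, 24007 and 12674 normalized counts in GFP-only cells. It had 9651, 8820 and 20114 in double-positive cells and 9752, 9634 and 17633 in RFP-only cells. Litter 5 reversed the order of the populations: GFP-only cells were highest in litters 1 and 2 and lowest in litter 5. The log2 fold change from GFP-only was -0.68 ± 0.37 in double-positive cells (limma, adjusted p = 0.281) and -0.70 ± 0.37 in RFP-only cells (adjusted p = 0.208), and without GFP-only litter 5 it was -0.98 and -0.99 (adjusted p = 0.131 and 0.0827). Double-positive and RFP-only cells differed by 0.02, with a 95% interval from -0.80 to 0.83 (adjusted p = 0.998). Thbs1 shares 3.42% of its exon bases with Gm29233 on the opposite strand.

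Thbs2 (ENSMUSG00000023885, chr17:14665500-14694235, minus strand), the other trimeric thrombospondin and a protein of connective tissue fibroblasts, had 7106, 15169 and 1293 normalized counts in GFP-only cells. It had 2948, 6062 and 4745 in double-positive cells and 9211, 10358 and 15869 in RFP-only cells. Within each litter RFP-only cells were above double-positive cells and those ranges did not overlap, while the GFP-only range enclosed the double-positive one. The log2 difference between double-positive and RFP-only cells was -1.39 ± 0.69 (limma, adjusted p = 0.441). It passed when GFP-only litter 5 was left out (adjusted p = 0.0444) or when only these 2 populations were fitted (adjusted p = 0.0321). Against GFP-only the log2 fold change was -0.24 in double-positive cells (95% interval from -1.75 to 1.27, adjusted p = 0.858) and 1.15 in RFP-only cells (from -0.37 to 2.66, adjusted p = 0.261). Without GFP-only litter 5 these moved to -1.24 and 0.15, and without that of litter 2 the RFP-only value moved to 1.92 (adjusted p = 0.0448).

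Thbs3 (ENSMUSG00000028047, chr3:89215180-89226837, plus strand), a pentameric thrombospondin of the growth plate, had 1912, 3220 and 4251 normalized counts in GFP-only cells. It had 2503, 4903 and 3673 in double-positive cells and 2204, 3405 and 3639 in RFP-only cells. The 3 ranges overlapped, and litter 1 was the lowest library in each population. The log2 fold change was 0.26 in double-positive against GFP-only cells (95% interval from -0.49 to 1.01), 0.02 in RFP-only against GFP-only cells (from -0.73 to 0.77) and 0.24 in double-positive against RFP-only cells (from -0.51 to 0.99), with adjusted p of 0.668, 0.975 and 0.918. Thbs3 shares 6.59% of its exon bases with Mtx1 on the opposite strand, and no source used here gives the strand setting of the counting.

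Set against each other per kilobase, the thrombospondins made up different mixtures in the 3 populations. Comp, named here for its place in the family, took 81.7% ± 9.06 (SD, n = 3) of their summed level in GFP-only, 27.7% ± 16.0 in double-positive and 1.05% ± 1.01 in RFP-only cells. Thbs4 took 0.245% ± 0.0754, 16.0% ± 7.14 and 36.4% ± 5.37 in the same order. Thbs2 took 4.02% ± 3.19, 10.8% ± 4.34 and 24.3% ± 1.77. Thbs1 took 11.99% ± 6.60, 32.7% ± 7.95 and 29.0% ± 4.20, and its library ranges overlapped between double-positive and RFP-only cells, from 25.4% to 41.1% and from 25.4% to 33.6%. Thbs3 took 2.07% ± 0.158, 12.8% ± 5.28 and 9.33% ± 1.77. Since shares sum to the whole, the share of each gene depends on the level of Comp. The ratio of the 2 pentameric genes Thbs4 and Thbs3 does not: per kilobase it was 0.0730 to 0.152 in GFP-only, 1.196 to 1.29 in double-positive and 3.30 to 5.196 in RFP-only libraries, without overlap.

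**Figure D2:**
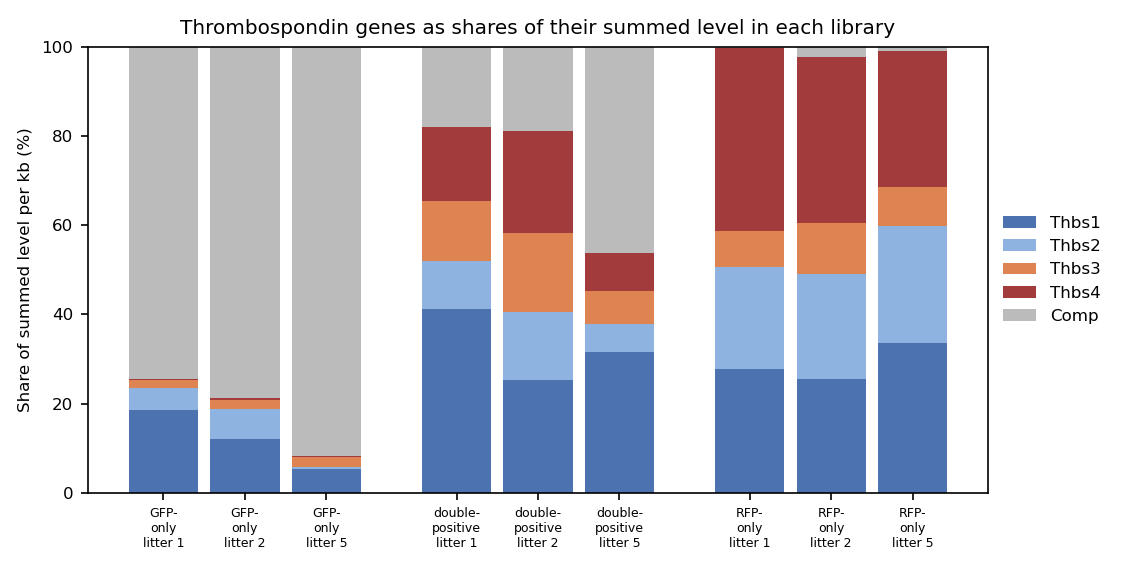
Share of each thrombospondin gene (Thbs1, Thbs2, Thbs3, Thbs4 and Comp) in their summed level per kilobase of merged exon length, in percent, for each of the 9 libraries as a stacked bar from 0. Comp fills most of the GFP-only bars, and the Thbs4 share reaches 30.6% to 41.2% in RFP-only cells.

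Tnc (ENSMUSG00000028364, chr4:63959785-64047015, minus strand), which shares 2.26% of its exon bases with 8030451A03Rik on the opposite strand, had 16024, 14407 and 3556 normalized counts in GFP-only cells, 13132, 12564 and 21670 in double-positive cells, and 9831, 7338 and 12065 in RFP-only cells. Double-positive libraries were all above RFP-only libraries, a separation seen in that direction in 11.2% of tested genes, and the GFP-only range was wider than either. The double-positive to RFP-only difference was 0.68 on the log2 scale (95% interval from -0.39 to 1.75, limma, adjusted p = 0.696). Against GFP-only the values were 0.71 in double-positive cells (adjusted p = 0.393) and 0.03 in RFP-only cells (adjusted p = 0.976). Both rested on GFP-only litter 5, since without it they were 0.01 and -0.67 (adjusted p = 0.991 and 0.106).

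Fibin (ENSMUSG00000074971, chr2:110360917-110363183, minus strand) was the 1 gene of the 10 that passed the test as lower in RFP-only cells against both other populations. Its normalized counts were 21660, 19452 and 30271 in GFP-only cells, 19211, 17164 and 24215 in double-positive cells, and 7497, 9429 and 9657 in RFP-only cells. All 6 libraries with the Sox9 reporter were above all 3 RFP-only libraries, and the GFP-only and double-positive ranges overlapped. RFP-only cells were at a log2 fold change of -1.41 ± 0.23 from GFP-only cells (limma, adjusted p = 0.00145; -1.22 without GFP-only litter 5), and double-positive cells were 1.18 ± 0.23 above RFP-only cells (adjusted p = 0.0192). The second call was lost without double-positive litter 1 (adjusted p = 0.0747) or 5 (0.0906), without RFP-only litter 1 (0.0914), 2 (0.072) or 5 (0.0638), and without a trend in the prior (0.0644). Double-positive and GFP-only cells differed by -0.23, with a 95% interval from -0.72 to 0.27 (adjusted p = 0.57). The cartilage markers moved in the same direction in both called comparisons. Of them 12 of 12 were lower in RFP-only than GFP-only cells and 12 of 12 higher in double-positive than RFP-only cells. In double-positive against GFP-only cells, where Fibin did not pass, 8 of 12 cartilage markers were lower. Their part in the Fibin result was not tested.

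Cilp (ENSMUSG00000042254, chr9:65265180-65280605, plus strand), whose promoter above held 3 E-box matches, was near the detection limit in GFP-only cells. No read was counted in the GFP-only libraries of litters 1 and 5, where 3 reads would be 2.48 and 4.07 normalized counts, and 10 reads (12.24 normalized counts) were counted in litter 2. Double-positive libraries had 108.6, 162.9 and 80.75 normalized counts and RFP-only libraries had 367.2, 301.2 and 436.8, so the populations formed 3 steps. The log2 fold change from GFP-only, on the log2(normalized count + 1) scale, was 5.59 ± 0.88 in double-positive cells (limma, adjusted p = 0.00392) and 7.27 ± 0.88 in RFP-only cells (adjusted p = 0.000262). At so few GFP-only reads the size depends on the pseudocount, from 3.96 to 6.26 and from 5.61 to 7.95 for pseudocounts of 5 and 0.5. Without GFP-only litter 5 the values were 4.97 and 6.65. Double-positive cells were below RFP-only cells by a log2 difference of -1.68 ± 0.88, with -1.75, -0.88 and -2.42 in litters 1, 2 and 5. That difference did not pass over the 3 populations (adjusted p = 0.487) and passed when only these 2 populations were fitted (adjusted p = 0.0283). Cilp, Thbs2 and Thbs4 were the 3 genes whose double-positive ranges lay wholly below the RFP-only ranges, against 12.6% of tested genes.

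**Figure D3:**
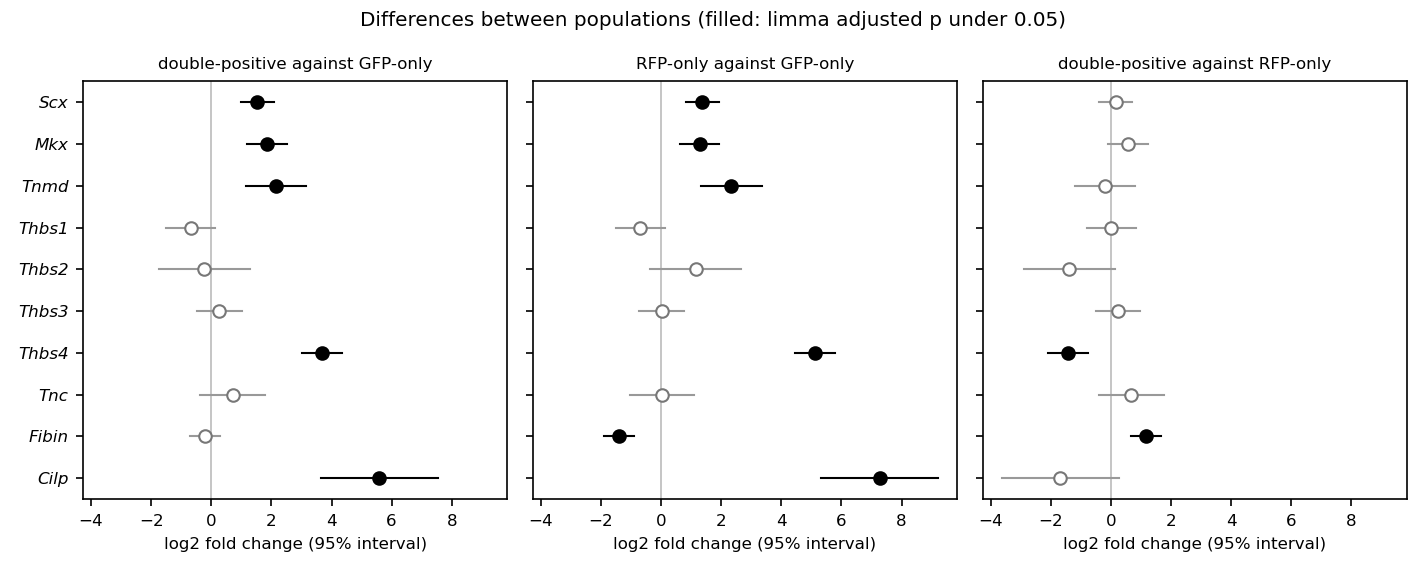
Log2 fold changes of the 10 genes with 95% intervals from limma in the 3 comparisons, on the log2(normalized count + 1) scale, with a line at 0. Filled points passed an adjusted p of 0.05. Thbs4 and Cilp lie farthest to the right of 0 in both comparisons with GFP-only cells, and Fibin and Thbs4 are the filled points between double-positive and RFP-only cells.

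Levels per kilobase of merged exon length placed Fibin highest of the 10 genes in every population, with means of 10496 normalized counts per kilobase in GFP-only, 8909 in double-positive and 3909 in RFP-only cells, and its range was above the next gene in each. Cilp was the lowest in every population, at 0.960, 27.6 and 86.6, also without overlap with its neighbour. Thbs4 moved most in the order: it was ninth in GFP-only cells (73.1 ± 25.3), sixth in double-positive cells (954 ± 339) and second in RFP-only cells (2450 ± 169). In RFP-only cells Thbs4, Tnmd (2160 ± 788), Thbs1 (2032 ± 755), Thbs2 (1687 ± 508), Scx (1298 ± 62.1) and Tnc (1254 ± 304) followed each other with overlapping ranges between neighbours. Thbs3 (639 ± 160) and Mkx (314 ± 66.0) stood below them, each clear of its neighbours. In double-positive cells neighbours overlapped from Thbs1 (2118 ± 1036) through Tnmd (2068 ± 1226), Tnc (2031 ± 656), Scx (1508 ± 483), Thbs4 and Thbs3 (766 ± 249) to Thbs2 (655 ± 223) and on to Mkx (465 ± 90.3). In GFP-only cells Thbs1 (3281 ± 1037) was second and clear of Tnc (1458 ± 872), while Tnc, Thbs2 (1122 ± 995), Thbs3 (648 ± 243), Scx (503 ± 46.3) and Tnmd (417 ± 122) overlapped in turn, and Mkx (131 ± 42.1) overlapped with Thbs4.

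The genes most alike each member were ranked by the Pearson correlation of log2 values over the 9 libraries, which share 3 populations, and are given as a description. For Scx they were Gstt1 (0.990), Tbx18 (0.976) and Adamts15 (0.976), for Mkx they were Shisa2 (0.990), Kif26a (0.981) and Sox4 (0.980), and for Tnmd they were Medag (0.976), Snx16 (0.969) and Npas2 (0.968). Thbs4 was followed most closely by Gbp6 (0.994), Agtr2 (0.994) and Fam163a (0.993), and Cilp by Mchr1 (0.995), Hs3st5 (0.995) and Siah3 (0.993). Fibin was followed by Pacsin3 (0.987), Kazald1 (0.982) and Cthrc1 (0.980), the last a secreted protein. For the 4 genes that did not pass the F-test, the highest values were with Calu for Thbs1 (0.968), Man1c1 for Thbs2 (0.975), Plxnb2 for Thbs3 (0.942) and Med25 for Tnc (0.970). Among the 10 genes themselves the highest value was between Thbs4 and Cilp (0.971) and the lowest between Thbs4 and Fibin (-0.772).

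The relatives of the 10 genes were read from a list of 7 paralogs, of which 6 were tested. In double-positive against GFP-only cells 1 was higher and 2 were lower (median log2 fold change 0.70, 0.04 over all tested genes, of which 5.27% were higher and 3.02% lower), and in RFP-only against GFP-only cells 2 were higher and 2 lower (median 0.30, 0.05 over all, with 11.8% higher and 8.48% lower). Cnmd, the cartilage paralog of Tnmd, stood at 177532 ± 120428 normalized counts in GFP-only, 53252 ± 23434 in double-positive and 1366 ± 218 in RFP-only cells. It therefore ran opposite to Tnmd, with a log2 fold change of -6.82 ± 0.43 in RFP-only against GFP-only cells (limma, adjusted p = 5.08e-06). In double-positive against GFP-only cells the Cnmd value was -1.61 ± 0.43 (adjusted p = 0.0414, and 0.0623 without GFP-only litter 5). Comp, the cartilage relative of Thbs4, fell from 76181 ± 30860 in GFP-only to 214 ± 185 in RFP-only cells (-9.02 ± 0.88, adjusted p = 6.62e-05). Tcf15, the basic helix-loop-helix relative of Scx, was higher in RFP-only than GFP-only cells (2.36 ± 0.55, adjusted p = 0.0116). Only Cnmd (5.21 ± 0.43, adjusted p = 9.2e-05) and Comp (5.05 ± 0.88, adjusted p = 0.0115) passed between double-positive and RFP-only cells, both higher in double-positive cells, and Comp was at an adjusted p of 0.05 without double-positive litter 5. Of all tested genes 1.80% were called higher and 1.05% lower between these 2 populations. The count of 3 in the first comparison fell to 1 without GFP-only litter 2, double-positive litter 1 or any RFP-only library, and to 0 without double-positive litter 2. It was also 1 with no filter or with only the 2 populations fitted and 0 with no trend in the prior, where the count of 2 against RFP-only cells was 1.

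Of 20 regulators and signals of tendon development, 19 were tested. In double-positive against GFP-only cells 3 were higher and none lower (median 0.61 beside 5.27% and 3.02% of all tested genes called, with 1 lower at an unadjusted p under 0.05 and 0 with edgeR or DESeq2), in RFP-only against GFP-only cells 9 were higher and 1 lower (median 0.89, beside 11.8% and 8.48%), and between double-positive and RFP-only cells none passed in either direction with limma (median -0.25, -0.01 over all tested genes). Of all tested genes 1.80% were called higher and 1.05% lower there, so the absence of calls among 19 genes is close to that share. At an unadjusted p under 0.05, 1 of the regulators and signals was higher and 4 were lower there. For them edgeR called 0 and DESeq2 1, which was lower. Spry1, a feedback inhibitor of FGF signaling, rose from 877 ± 373 normalized counts in GFP-only to 2514 ± 127 in double-positive cells (1.63 ± 0.32 on the log2 scale, limma, adjusted p = 0.0112) and 6180 ± 961 in RFP-only cells (2.92 ± 0.32, adjusted p = 0.000134). Tgfbr2, a TGF-beta receptor, rose from 1420 ± 664 in GFP-only to 5229 ± 1008 in RFP-only cells (2.01 ± 0.36, adjusted p = 0.00264), and Eya2, a transcriptional coactivator, from 230 ± 185 to 1282 ± 529 (2.68 ± 0.51, adjusted p = 0.00379). The count of 10 in RFP-only cells fell to 6 and 5 without RFP-only litter 1 or 5. The count of 3 in double-positive cells rose to 5 without GFP-only litter 2 or 5 and with library weights. The count of 0 between double-positive and RFP-only cells became 2 and 3 without GFP-only litter 1 or 5, 1 with a pseudocount of 5, quantile normalization or DESeq2, 4 with only the 2 populations fitted and 3 with library weights.

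Of 24 other tendon and ligament matrix genes, all tested, 6 were higher and 2 lower in double-positive than GFP-only cells (median 1.05, 0.04 over all tested genes), beside 5.27% and 3.02% of all tested genes. In RFP-only against GFP-only cells 13 were higher and 2 lower (median 1.91, 0.05 over all), beside 11.8% and 8.48%. Postn, a matricellular protein of fibrous tissue, rose from 7868 ± 7733 normalized counts in GFP-only to 94570 ± 24098 in RFP-only cells (4.0 ± 0.59, limma, adjusted p = 0.000834). Kera, a keratan sulfate proteoglycan, rose from 226 ± 108 to 6829 ± 1279 (5.03 ± 0.55, adjusted p = 0.000129). The 2 lower genes were Prelp and Chad, matrix proteins that bind collagen. Prelp fell from 16345 ± 2794 to 244 ± 134 (-6.24 ± 0.43, adjusted p = 7.87e-06), and Chad from 20220 ± 10921 to 47.8 ± 55.8 (-9.21 ± 0.72, adjusted p = 1.42e-05). In double-positive against GFP-only cells Prelp (-2.27 ± 0.43, adjusted p = 0.00992) and Lum (-1.52 ± 0.31, adjusted p = 0.0138) fell. Among the 6 higher genes there, Col5a1 went from 8724 ± 3562 to 26060 ± 12016 normalized counts and Postn from 7868 ± 7733 to 36943 ± 18420. Both calls were lost without double-positive litter 2 (limma, adjusted p = 0.0808 and 0.106) and under some other alternatives. Between double-positive and RFP-only cells 4 were higher and 2 lower (median -1.06, -0.01 over all), beside 1.80% and 1.05%. The higher ones included Chad (6.82 ± 0.72, adjusted p = 0.000532), Prelp (3.96 ± 0.43, adjusted p = 0.000681) and Tgfbi (1.47 ± 0.24, adjusted p = 0.00701). Fmod was the remaining higher gene, with 5666 ± 2685 normalized counts in GFP-only, 13360 ± 4172 in double-positive and 2935 ± 1001 in RFP-only cells. The Fmod call was lost without double-positive litter 5 (limma, adjusted p = 0.0553). The lower ones, named after their values were seen, were Kera (-2.99 ± 0.55, adjusted p = 0.0148) and Lum (-1.51 ± 0.31, adjusted p = 0.0273). Cartilage markers moved in the same direction as Chad and Prelp. They were higher in double-positive than RFP-only cells for 12 of 12. Against GFP-only they were lower for 12 of 12 in RFP-only and 8 of 12 in double-positive cells. Their part in the Chad and Prelp results was not tested.

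The matrix counts moved with single libraries and with the fit. The count of 8 in double-positive against GFP-only cells was 4 and 5 without GFP-only litter 1 or 5, 2 and 3 without double-positive litter 2 or 5, and 4, 5 and 4 without RFP-only litter 1, 2 or 5. The count of 6 between double-positive and RFP-only cells was 3 without double-positive litter 5. With litter as a fixed replicate block, or with only the 2 populations fitted, it was 10. The count of 8 was also 2 with no trend in the prior, 3 with only the 2 populations fitted, 4 with no filter and 5 with edgeR.

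Of 12 receptors of thrombospondins and tenascins, all tested, 2 were higher and none lower in double-positive than GFP-only cells (median 0.15 beside 0.04 over all tested genes, of which 5.27% and 3.02% were called, with 1 lower at an unadjusted p under 0.05 and 0 with edgeR or DESeq2), and 3 were higher and 1 lower in RFP-only than GFP-only cells (median 0.35, with 11.8% and 8.48% of all tested genes called). Itga8, an integrin subunit that binds Tnc, rose from 229 ± 42.8 normalized counts in GFP-only to 908 ± 98.7 in double-positive cells (1.99 ± 0.27, limma, adjusted p = 0.00195) and 1567 ± 456 in RFP-only cells (2.75 ± 0.27, adjusted p = 7.03e-05). Cd36, a receptor of Thbs1 that is also made by immune and endothelial cells, rose from 68.2 ± 50.4 to 536 ± 343 (3.03 ± 0.59, adjusted p = 0.0106) and 368 ± 34.7 (2.69 ± 0.59, adjusted p = 0.00795). Blood and immune markers were higher in double-positive than GFP-only cells for 8 of 13 genes and in RFP-only cells for 5 of 13. Endothelial markers were higher for 2 of 10 and 6 of 10. Their part in the Cd36 result was not tested. The heparan sulfate proteoglycan Sdc4 was lower in RFP-only than GFP-only cells (-2.52 ± 0.42, adjusted p = 0.0018). The integrin subunit Itga4 passed between double-positive and RFP-only cells (-2.14 ± 0.47, adjusted p = 0.0368). It was the 1 receptor of 12 called there, beside 1.05% of all tested genes called lower and 1.80% higher. Itga4 did not pass without any 1 of the double-positive libraries or without RFP-only litter 2 or 5 (adjusted p from 0.0806 to 0.175), with no filter (0.0554) or with no trend in the prior (0.0599). The list count of 1 was 0 without double-positive litter 1 or 5 or RFP-only litter 2 or 5, with no filter or with no trend in the prior. It was 2 without GFP-only litter 5, with only the 2 populations fitted or with DESeq2, and 3 with library weights. With litter as a fixed replicate block the count of 2 in double-positive against GFP-only cells was 4, and that of 1 between double-positive and RFP-only cells was 2.

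**Figure D4:**
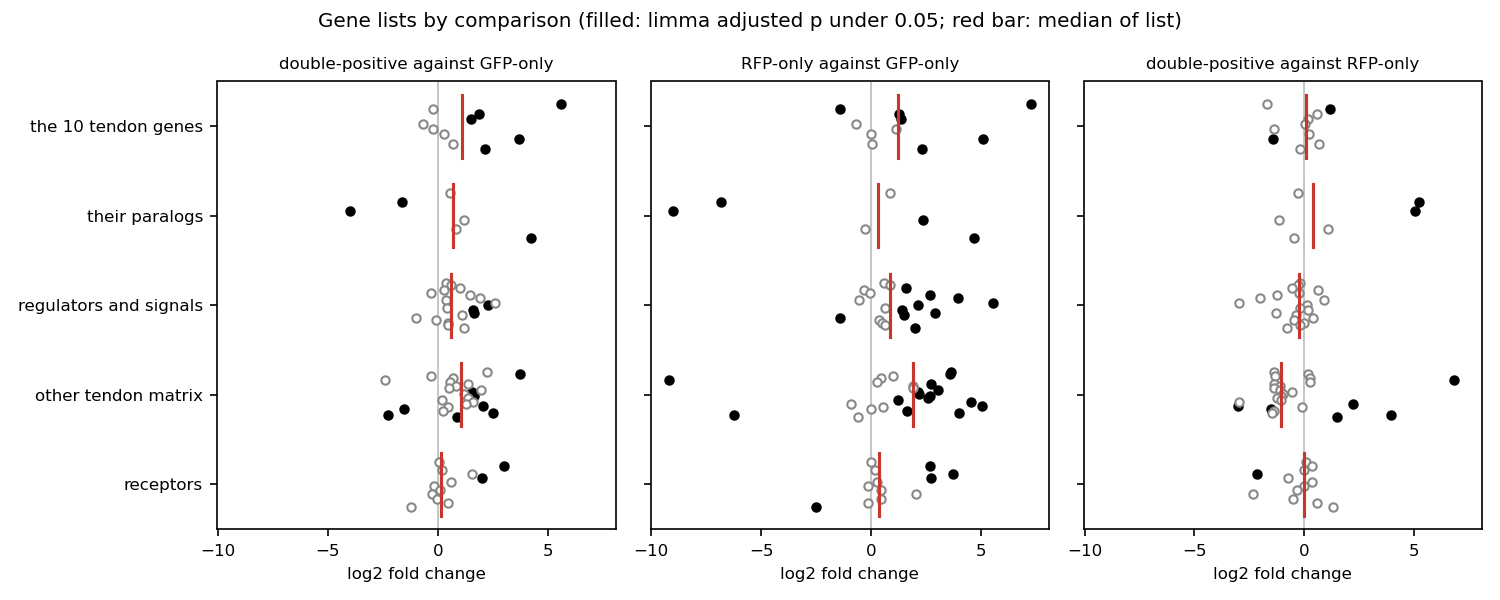
Log2 fold changes of the tested genes of the 5 lists (the 10 members, their paralogs, regulators and signals, other matrix genes and receptors) in the 3 comparisons, with 1 point per gene, filled where the adjusted p from limma was under 0.05, and the list median as a bar. In RFP-only against GFP-only cells the median of the other matrix genes is 1.91 and that of the members is 1.22.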

How the data were processed

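Cells were sorted from E14.5 mouse knees of 3 litters, and RNA was sequenced as Nextera XT libraries, per the labels' protocols. Without versions or roles, FastQC, STAR, Salmon, DESeq2 and mm10 are listed in the submitters' processing notes, and gene models and strand setting are not given in the sources used here. The values are a signal in normalized counts, as made and deposited by the authors. In each library 100% of them equalled a whole number of reads within 0.001, and edgeR on these reads called 1236, 3191 and 411 genes in the 3 comparisons in the order of the report. Reads are not independent molecules, so 3-read limits cover counting error only.

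Symbols and 1-based coordinates came from GENCODE M21 (GRCm38). Of the identifiers 54495 matched and 37 did not. Tests were two-sided and used limma 3.58.1 (R 4.3.3), with a trend of variance on mean, over log2(normalized count + 1), which understates fold changes of low genes. They covered 17764 genes with a mean of at least 10, with 1 shared spread over 9 libraries, Benjamini-Hochberg adjustment over all tested genes and calls under 0.05. The test was checked on simulated data. The alternatives were other pseudocounts, filters, scalings, blocks and priors, edgeR 4.0.16 and DESeq2 1.42.0 on recovered reads, and leaving out each library.

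Replicates were separate litters, and their counts differed beyond sampling noise (chi-square over its degrees of freedom 46.6 or more). The labels give the number as a shared litter, so numbers pair the libraries. Deviations from population means correlated at a median of 0.103 for same-litter pairs and -0.0409 for other pairs.

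The members and lists were chosen with earlier results of these data known. The text names all 10 members and the 3 genes most alike each called member (1 for the others). From each list and comparison, up to 4 called genes with the smallest adjusted p were eligible, and only some are described. Tnxb is among those left out. Kera and Lum between double-positive and RFP-only cells were added outside this rule. A called gene of the regulator list is not reported here.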

Additional observations from a re-analysis of the deposited data

How the results depend on the processing

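In GFP-only cells Cilp rests on 10 reads, all in litter 2, and each population has 3 litters. The counts of members called in double-positive against GFP-only cells, in RFP-only against GFP-only and over the 3 populations stayed within 1.5 times under every alternative run. The count of 2 in double-positive against RFP-only cells was 4 with only those populations fitted, 0 with no trend in the prior, and from 0 to 3 with single libraries left out. Litter as a replicate block changed no member call (5, 6 and 2 called). Reversed directions concerned values that had not passed: Fibin in double-positive against GFP-only cells (0.19) and Thbs1 in double-positive against RFP-only cells (-0.0252) under quantile normalization, Thbs3 in RFP-only against GFP-only cells with DESeq2 (-0.0305), and Tnc in the same comparison with library weights (-0.53), edgeR (-0.21) and DESeq2 (-0.22). With single libraries left out, Thbs2 ran from -1.24 to 0.54 and Thbs3 from -0.0559 to 0.52 in double-positive against GFP-only cells. Thbs3 ran from -0.30 to 0.28 and Tnc from -0.67 to 0.42 in RFP-only against GFP-only cells. Scx ran from -0.0546 to 0.43, Tnmd from -0.63 to 0.34 and Thbs1 from -0.36 to 0.30 in double-positive against RFP-only cells. The cause was not tested. Thbs1 in RFP-only against GFP-only cells passed with library weights (-1.05, limma adjusted p = 0.0202). Over all tested genes, calls in double-positive against GFP-only cells went from 1472 to 697 with 2 populations fitted, 2780 with DESeq2, and 855 and 637 without double-positive litter 1 or 2. In RFP-only against GFP-only cells they went from 3601 to 2258 and 2190 without RFP-only litter 1 or 5. Between double-positive and RFP-only cells they went from 506 to 1008 with 2 populations fitted, 1545 with library weights, 1152 with DESeq2, and from 217 to 1050 with single libraries left out.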
